A study of Mus musculus with 12 samples.

Results

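Genes of the interferon response and of antigen presentation were followed in skeletal muscle of mice given a high-fat diet. The list held 37 genes, chosen by symbol: a sensor of viral RNA and the transcription factors of the response, the OAS and IFIT families, other antiviral effectors, interferon-induced GTPases, and the genes of class I and class II presentation. Of these, 35 were measured, among 18193 genes in all, each by the probe set with the highest mean among those that carried its symbol alone. Isg15 was left out because its probe set carried several symbols, and Ifi44 because no probe set carried that symbol. All mice were C57Bl/6 and were raised on standard chow, in which 13% of calories came from fat. The 3 groups of 4 arrays were mice that stayed on chow, mice moved at 6 weeks of age to a high-fat diet (46% of its calories as fat) and sampled 5 days later, and mice kept on it for 42 days. The labels do not say which muscle was taken, the sex of the mice, how old the chow mice were when sampled, or whether replicates were separate animals, so p-values measure only the spread between these samples, which may be technical.

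Cells that sense viral nucleic acid secrete type I interferons, which bind a shared receptor and, through the kinases JAK1 and TYK2, activate a transcription factor complex with IRF9 that switches on antiviral genes at interferon-stimulated response elements. Type II interferon, made by lymphocytes, acts at gamma-activated sites and raises the guanylate-binding proteins and the machinery that loads peptides onto major histocompatibility complex (MHC) molecules. Class I molecules show peptides from inside a cell to cytotoxic T cells, while class II molecules, found on macrophages, dendritic cells and B cells, show ingested material to helper T cells; healthy muscle fibres carry little of either.

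The promoters of 6 of the genes are printed because the results turn on them: Gbp3, Gbp2 and Ifit1 stood out in 1 chow array, and Oas1a, H2-Q10 and Rsad2 passed the test of diet. Each run spans 250 bases before to 50 bases after the start of the gene, 5′ to 3′ on the gene's own strand, from RefSeq on build GRCm38.p6. Capitals mark matches to the core of the interferon-stimulated response element, GAAANNGAAA or TTTCNNTTTC on the other strand, or to the gamma-activated site, TTCNNNGAA, which reads the same on both strands.
Gbp3, chr3:142559794-142560093, plus strand, upstream of its 2 listed starts: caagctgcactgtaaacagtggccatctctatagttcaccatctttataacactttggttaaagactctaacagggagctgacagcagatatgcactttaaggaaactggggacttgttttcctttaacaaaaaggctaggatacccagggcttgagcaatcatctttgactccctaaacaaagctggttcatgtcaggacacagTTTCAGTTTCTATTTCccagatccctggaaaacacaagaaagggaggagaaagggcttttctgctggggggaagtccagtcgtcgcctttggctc
Gbp2, chr3:142620413-142620712, plus strand: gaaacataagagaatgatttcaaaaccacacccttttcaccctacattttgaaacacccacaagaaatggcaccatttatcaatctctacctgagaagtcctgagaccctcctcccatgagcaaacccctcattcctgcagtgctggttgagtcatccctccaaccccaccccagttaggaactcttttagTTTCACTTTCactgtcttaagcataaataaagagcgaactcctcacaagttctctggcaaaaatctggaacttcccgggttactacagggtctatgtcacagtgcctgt
Ifit1, chr19:34640639-34640938, plus strand: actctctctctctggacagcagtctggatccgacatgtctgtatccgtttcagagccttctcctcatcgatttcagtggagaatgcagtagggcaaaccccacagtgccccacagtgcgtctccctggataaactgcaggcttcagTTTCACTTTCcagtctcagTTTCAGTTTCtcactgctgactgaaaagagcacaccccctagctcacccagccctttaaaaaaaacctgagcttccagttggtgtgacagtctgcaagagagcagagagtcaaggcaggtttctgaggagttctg
Oas1a, chr5:120907476-120907775, minus strand: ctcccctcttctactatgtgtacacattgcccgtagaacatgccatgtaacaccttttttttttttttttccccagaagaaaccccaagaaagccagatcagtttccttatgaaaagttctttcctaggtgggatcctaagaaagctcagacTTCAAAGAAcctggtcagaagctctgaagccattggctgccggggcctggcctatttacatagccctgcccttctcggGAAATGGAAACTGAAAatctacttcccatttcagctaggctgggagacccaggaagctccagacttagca
Rsad2, chr12:26456403-26456702, minus strand: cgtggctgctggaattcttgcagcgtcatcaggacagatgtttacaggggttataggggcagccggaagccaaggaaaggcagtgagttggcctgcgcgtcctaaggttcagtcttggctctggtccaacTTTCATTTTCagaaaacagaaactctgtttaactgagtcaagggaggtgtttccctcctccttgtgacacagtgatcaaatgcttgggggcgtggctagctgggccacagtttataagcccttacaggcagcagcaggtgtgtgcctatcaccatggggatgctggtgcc
H2-Q10, chr17:35469839-35470138, plus strand: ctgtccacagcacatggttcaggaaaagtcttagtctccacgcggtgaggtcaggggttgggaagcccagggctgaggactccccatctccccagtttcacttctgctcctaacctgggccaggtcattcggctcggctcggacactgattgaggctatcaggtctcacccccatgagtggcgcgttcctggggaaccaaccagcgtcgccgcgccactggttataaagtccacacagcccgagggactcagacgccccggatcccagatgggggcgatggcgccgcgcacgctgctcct
The response element begins 59 bases before the start in Gbp2, 120 bases before it in Rsad2, and 104 and 85 bases before it in Ifit1. Gbp3 holds a pair of overlapping matches at 45 and 39 bases, and Oas1a another overlapping pair at 20 and 14 bases, besides a gamma-activated site at 98 bases. The H2-Q10 window holds neither motif. Of the 37 genes, 30 had a promoter in the table, and 14 of those 30 (46.7%) held a response element, against 3.99% of all genes with a promoter and 3.44% of all 32851 promoters of this length. Gamma-activated sites were present in 7 of the 30 genes (23.3%), against 9.55% of genes and 8.3% of promoters. A match describes the letters in these windows and is not evidence of binding.

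Values are log2 RMA signals, a scale of probe brightness on which a difference of 1 is a doubling, and levels are compared only within a gene. Differences between groups were tested with limma over all 18193 genes, and a gene is said to have risen or fallen at an adjusted p under 0.05; errors after ± are SD for group levels (n = 4 arrays) and SE for log2 fold changes. Array medians lay between 7.60 and 7.70 in all 12 arrays. The labelled tissue was checked against 8 markers of muscle fibres, such as creatine kinase, whose mean signal lay between 15.12 and 15.18 in every array. These signals lie near the highest value of all (15.46), so a flat mean cannot show an equal share of muscle. The tissue is a mixture of cell types, and fewer cells of a type cannot be told apart from less RNA per cell.

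A single array stood apart in these genes. Chow replicate 4 had the highest value of all 12 arrays in 26 of the 35 genes (74.3%), in 31 of 77 other measured genes of the pathway (40.3%) and in 7.07% of all genes. No other array held the highest value in more than 2 of the 35. Against the mean of the other 3 chow arrays, chow replicate 4 was higher in 33 of the 35 genes, with a median log2 difference of 0.41, while the median over all genes was -0.012. A difference above 0.5 was seen in 16 of the 35 genes (45.7%) and in 0.824% of all genes. Counted over single probe sets, 37 of the 63 that read these genes (58.7%) were above all other 11 arrays in chow replicate 4, against 7.29% of all probe sets with 1 symbol. The 63 include the 35 already counted by gene. Of the 28 not used, 11 (39.3%) were above all other 11 arrays in chow replicate 4. This array belongs to the control group, so the comparisons with chow were also fitted without it.

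**Figure D1:**
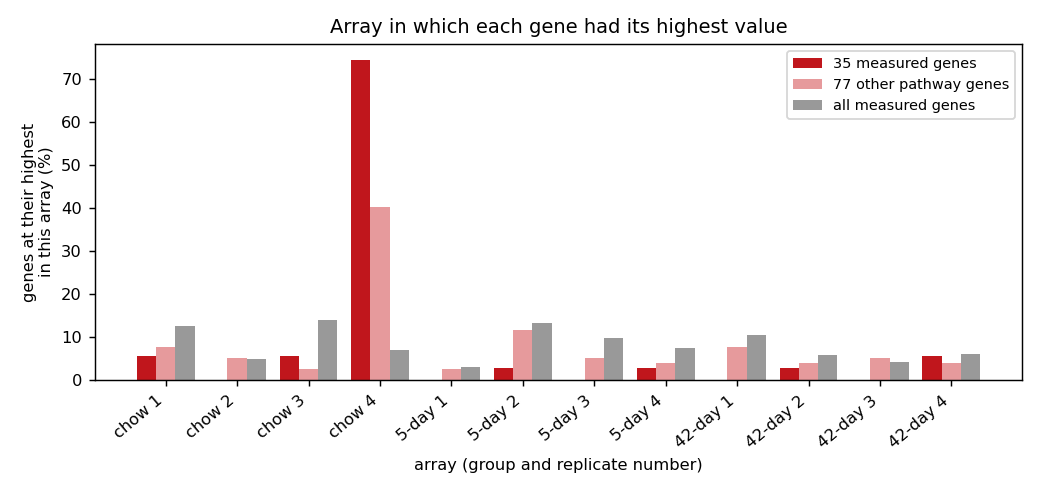
Share of genes (%, vertical axis) that had their highest log2 signal in each of the 12 arrays (horizontal axis), for the 35 genes, 77 other genes of the pathway and all 18193 genes. Chow replicate 4 held the highest value in 74.3% of the 35 genes, 40.3% of the other pathway genes and 7.07% of all genes.

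Other marker genes moved with that array. All 6 measured white adipocyte markers, such as adiponectin, were higher in chow replicate 4 than the mean of the other chow arrays, and their mean was 10.94 there against 10.01 to 10.22. The 4 brown adipocyte markers, such as Ucp1, had a mean of 8.58 there against 7.14 to 8.29. Macrophage markers were higher in 8 of 8, with a mean of 9.13 against 8.96 to 9.01. Lymphocyte markers were higher in 2 of 9, with a mean of 7.395 against 7.396 to 7.467, and dendritic cell markers in 4 of 7. Muscle fibre markers were higher in 2 of 8, with a mean of 15.12 against 15.14 to 15.16. Liver markers were higher in 4 of 10, and their mean was 8.95 there against 8.63 to 8.85. Their part in the levels of the interferon genes of that array was not tested.

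After 5 days on the high-fat diet, 2 of the 35 genes fell and 0 rose: Oas1a, an enzyme that makes the activator of RNase L, was 1.21-fold lower, and H2-Q10, a secreted class I molecule, was 2.56-fold lower. Falls made up 5.71% of the 35 genes, against 2.2% of all genes tested, and rises 1.6% of all genes. The signs of the differences were mixed, with 23 genes lower and 12 higher than on chow, and a median log2 fold change of -0.083, against -0.010 over all genes. With each array centred on its median, these medians were -0.041 and 0.0315. At an unadjusted p under 0.05, limma gave 6 genes lower and 2 higher, where 14.1% of all genes were lower and 10.6% higher. The 4 diet values lay wholly below the 4 chow values in 4 genes, Oas1a, H2-Q10, Rsad2 and Irf3, and wholly above them in 0 (11.4% of the 35, against 11.8% of all genes).

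Without chow replicate 4 the direction of the median at 5 days changed. It became 0.049, with 15 genes lower and 20 higher, and each of the 8 genes that changed sign went from lower to higher. This direction was fixed in advance. The array left out was above the mean of the other chow arrays in 33 of the 35 genes, so their fold changes must rise without it. In that fit 3 genes rose: Ifitm3, a membrane protein that blocks virus entry, and Cd74 and H2-Ab1 of the class II pathway. Oas1a still fell, and H2-Q10 missed the threshold, with an adjusted p of 0.0601. Over all genes 1.7% were called in that fit. Leaving out any other single array kept the median at or below -0.059.

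After 42 days, 1 of the 35 genes fell and 0 rose. The fall was in Rsad2, viperin, which makes an antiviral nucleotide, and was 1.29-fold. That is 2.86% of the genes, near the 3.44% of all genes that fell, and 2.12% of all genes rose. Lower values than on chow were found in 26 genes and higher ones in 9, with a median log2 fold change of -0.091, against -0.013 over all genes. At an unadjusted p under 0.05, limma gave 7 genes lower and 1 higher, where 13.4% of all genes were lower and 8.43% higher. The groups did not overlap in 4 genes, all lower (11.4%, against 13.9% of all genes): Oas1a, Irf3, Rsad2 and Ifi35.

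Without chow replicate 4 the 42-day median was 0.032, with 13 genes lower and 22 higher, and all 13 changes of sign went from lower to higher. As at 5 days, this direction follows from the high values of the array left out and is not a separate result. B2m, the shared light chain of class I molecules, and Ifitm3 then rose, and Rsad2 still fell, while 3.29% of all genes were called. Both comparisons use the same 4 chow arrays, so they are not independent of each other.

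**Figure D2:**
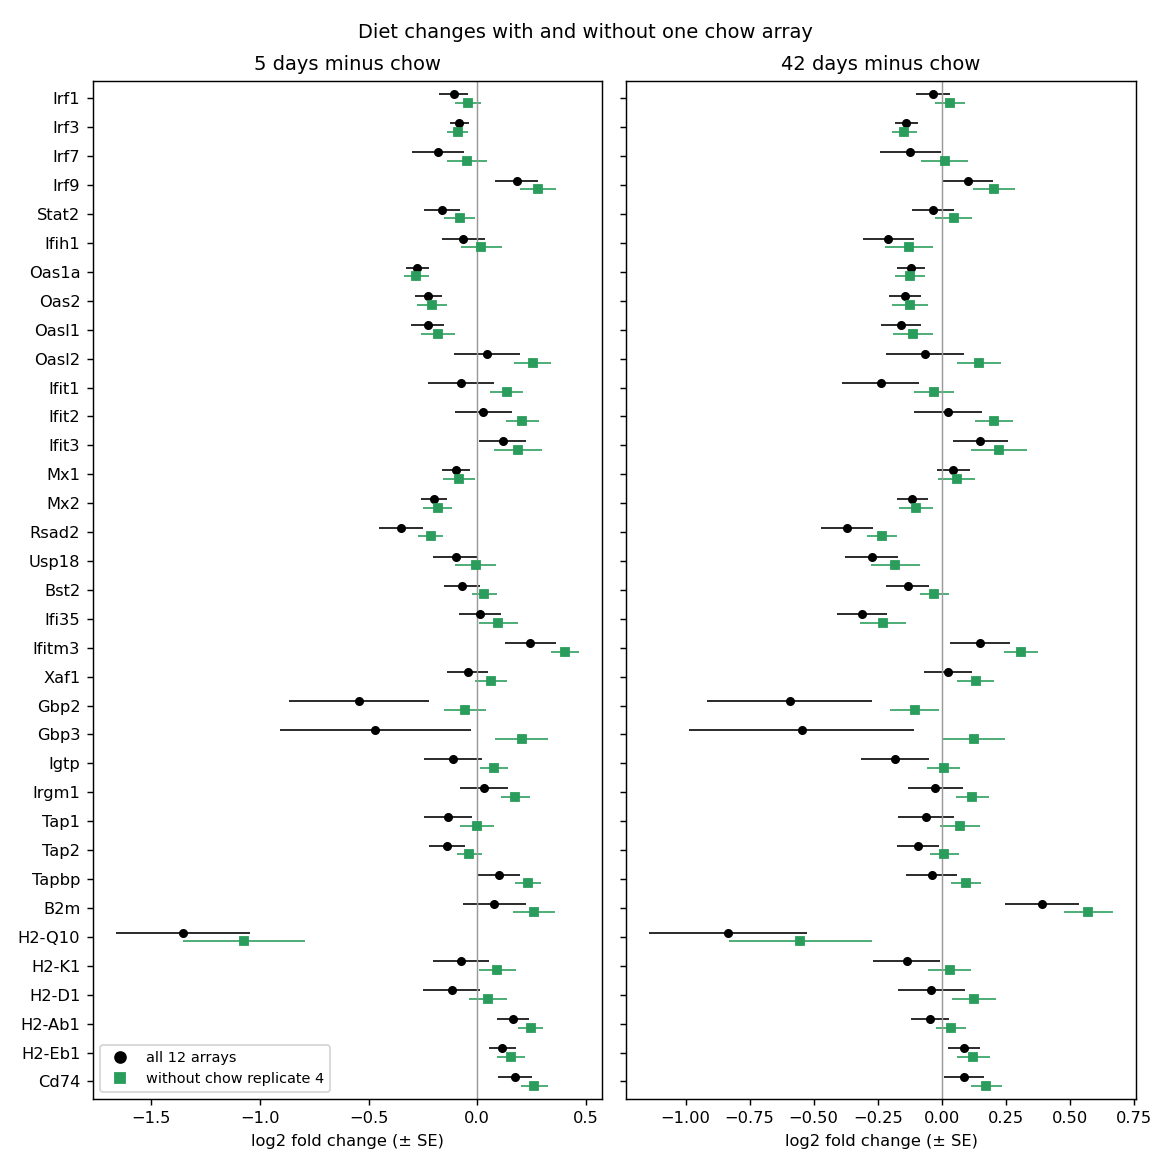
Log2 fold changes (horizontal axis, ± SE) of the 35 genes at 5 days (left) and 42 days (right) against chow, with all 12 arrays (black) and without chow replicate 4 (green). At 5 days 23 genes lay below 0 with all arrays and 15 without that array, and at 42 days 26 and 13.

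Between 5 and 42 days on the diet, 0 of the 35 genes rose and 0 fell by limma, where 2.75% of all genes rose and 5.77% fell. Both diet groups were moved to the diet at 6 weeks of age, so the 42-day mice were also older when sampled. Age cannot be told apart from time on the diet in this comparison. At an unadjusted p under 0.05, 3 genes were higher at 42 days and 2 were lower, where 13.7% of all genes were higher and 17.2% lower. The median log2 fold change was -0.030, with 20 genes lower and 15 higher, against 0.0078 over all genes, and it became positive under quantile normalization (0.023) and cyclic loess (0.022). The 4 values of the groups did not overlap in 6 genes (17.1%, against 20.4% of all genes). Oas1a and B2m were higher at 42 days, and Ifit1, Tapbp, H2-Ab1 and Ifi35 were lower. These fold changes use no chow array, and chow replicate 4 enters only the estimate of the spread. Without it B2m rose and H2-Ab1 and Ifi35 fell, while 7.59% of all genes were called.

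The sensor and the transcription factors did not pass the test in any comparison. The group holds Ifih1, which encodes MDA5, a sensor of long double-stranded RNA; Irf3 and Irf7, which switch on type I interferon genes; Irf9 and Stat2 of the interferon-induced complex; and Irf1, an early target of type II interferon. Against chow, 5 of the 6 were lower at 5 days and 5 of 6 at 42 days (4 of 6 under quantile normalization or cyclic loess). With chow replicate 4 left out, 4 of the 6 were lower at 5 days and 2 of 6 at 42 days, with a median of 0.022 at 42 days. Fold changes ran from -0.18 to 0.18 at 5 days and from -0.21 to 0.10 at 42 days on the log2 scale. Chow replicate 4 held the highest value in 4 of the 6. The 2 exceptions were Irf9 and Irf3.

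Irf3 was the steadiest of the 6 within groups. The chow arrays read 10.05, 10.04, 10.09 and 10.03 for Irf3, those of the 5-day group 9.91, 9.99, 10.01 and 9.97, and those of the 42-day group 9.91, 9.93, 9.92 and 9.90. The chow values lay above all 8 high-fat values, although the 12 arrays spanned only from 9.90 to 10.09. The log2 fold change was -0.083 ± 0.044 at 5 days (limma adjusted p = 0.259) and -0.14 ± 0.044 at 42 days (adjusted p = 0.0806). Leaving out chow replicate 4 gave -0.090 ± 0.049 and -0.15 ± 0.049. Irf3 had 4 probe sets, of which 2 were higher and 2 lower at 5 days, and the one used carries the maker's suffix for possible cross-hybridisation.

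The enzymatically active members of the OAS family make short oligoadenylate chains that activate RNase L, while the OAS-like member Oasl1 restrains Irf7 translation. For Oas1a the log2 signals were 9.56, 9.65, 9.67 and 9.61 on chow, 9.45, 9.38, 9.27 and 9.29 after 5 days, and 9.56, 9.50, 9.48 and 9.48 after 42 days. Chow values were the highest and the 5-day values the lowest, with the 42-day values between them and no overlap between any of the groups, though the lowest chow value (9.563) and the highest 42-day value (9.561) all but touched. The fall at 5 days was -0.28 ± 0.053 on the log2 scale (limma adjusted p = 0.0250), and -0.28 ± 0.059 without chow replicate 4 (adjusted p = 0.0413), an array in which Oas1a was not high. At 42 days the difference from chow was -0.12 ± 0.053 (adjusted p = 0.2), and 42 against 5 days gave 0.16 ± 0.053 (adjusted p = 0.0705). The fall at 5 days missed the threshold without 5-day replicate 2 (adjusted p = 0.0778) or 5-day replicate 4 (0.0517), and in a fit of the 8 arrays compared (0.0722). It also missed it with the white adipocyte (0.0681) or lymphocyte (0.73) marker mean as a covariate. Over all genes, calls at 5 days dropped from 692 to 6, 132, 7, 27 and 0 in these fits, in the order given. The lymphocyte mean was lower in every 5-day array (7.23 to 7.35) than in the others (7.38 to 7.47). That fit can therefore hardly separate it from the 5-day group. The log2 fold change of Oas1a stayed between -0.313 and -0.235 over all alternatives and left-out arrays.

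Signals of Oas2 were 8.40, 8.19, 8.31 and 8.37 in the chow group, 8.20, 8.02, 8.11 and 8.04 at 5 days, and 8.20, 8.08, 8.27 and 8.16 at 42 days. Chow values were mostly higher than the others, and chow replicate 2 lay within the 5-day range. The log2 fold change of Oas2 was -0.23 ± 0.062 at 5 days (limma adjusted p = 0.0560) and -0.14 ± 0.062 at 42 days (adjusted p = 0.199), or -0.21 ± 0.069 and -0.12 ± 0.069 without chow replicate 4. Oasl1 read 8.09, 7.96, 8.09 and 8.23 on the 4 chow arrays, 8.03, 7.80, 7.71 and 7.92 at 5 days, and 8.06, 7.96, 7.85 and 7.87 at 42 days. Here too the groups overlapped, with chow replicate 4 highest and 5-day replicate 3 lowest. Oasl1 differed from chow by -0.23 ± 0.076 at 5 days (limma adjusted p = 0.0920) and by -0.16 ± 0.076 at 42 days (adjusted p = 0.239), or by -0.18 ± 0.078 and -0.11 ± 0.078 without chow replicate 4. Oasl2 behaved otherwise within chow: replicate 4 read 7.63 and the other 3 arrays 6.72 to 6.85. With that array its log2 fold change at 5 days was 0.045 ± 0.15, and without it 0.25 ± 0.085 (limma adjusted p = 0.109).

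IFIT proteins bind viral RNA that lacks the methylated cap of the host. The chow arrays read 7.14, 7.12, 6.91 and 7.89 for Ifit1, those of the 5-day group 7.14, 7.20, 7.32 and 7.11, and those of the 42-day group 7.02, 7.11, 7.10 and 6.88. Chow replicate 4 was the highest, and the other chow arrays overlapped with both diet groups, while the 42-day values lay below the 5-day values. Ifit1 differed from chow by -0.075 ± 0.15 at 5 days and -0.24 ± 0.15 at 42 days on the log2 scale with all arrays, and by 0.13 ± 0.077 and -0.029 ± 0.077 without chow replicate 4. Ifit2 averaged 7.21 ± 0.37 on chow, 7.24 ± 0.13 at 5 days and 7.24 ± 0.068 at 42 days, and Ifit3 averaged 8.58 ± 0.20, 8.70 ± 0.17 and 8.73 ± 0.19. Neither passed the test in any comparison. Fitted without chow replicate 4, Ifit2 differed from chow by 0.21 ± 0.075 at 5 days and 0.20 ± 0.075 at 42 days, and Ifit3 by 0.19 ± 0.11 and 0.22 ± 0.11.

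Rsad2 passed the test at 42 days. For Rsad2 the log2 signals were 8.98, 8.98, 9.13 and 9.58 on chow, 8.83, 8.85, 8.84 and 8.74 after 5 days, and 8.84, 8.74, 8.86 and 8.75 after 42 days. The 3 lower chow values and the 8 high-fat values lay close together without overlapping, and chow replicate 4 lay well above all of them. Its log2 fold change was -0.35 ± 0.10 at 5 days (limma adjusted p = 0.0625) and -0.37 ± 0.10 at 42 days (adjusted p = 0.0474). Without chow replicate 4 the changes were -0.21 ± 0.059 (adjusted p = 0.0667) and -0.23 ± 0.059 (adjusted p = 0.0481), so the 42-day difference was smaller and remained past the threshold. The other probe sets of Rsad2 disagreed, with 42-day log2 fold changes of 0.20 and -0.38, and their mean with the one used gave -0.18 (adjusted p = 0.365). The 42-day call was also lost when chow replicate 3 or any single array of either diet group was left out (adjusted p from 0.0535 to 0.113), and it held in 5 of 14 alternatives (adjusted p up to 0.365).

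Mx1 and Mx2 belong to a family of dynamin-like GTPases that block viruses. Mx1 is defective in C57BL/6 mice, and whether Mx2 is active in these mice was not tested. The Mx1 probe set was dim, with a mean signal of 5.95 where the lower quartile of gene means was 7.21. Signals of Mx1 were 5.99, 5.92, 5.95 and 6.01 in the chow group, 5.96, 5.97, 5.85 and 5.70 at 5 days, and 6.01, 6.13, 5.99 and 5.92 at 42 days. Mx2 read 8.14, 8.02, 7.91 and 8.08 on the 4 chow arrays, 7.90, 7.92, 7.76 and 7.78 at 5 days, and 7.96, 7.92, 7.93 and 7.88 at 42 days. The groups overlapped for both genes, and 5-day replicates 3 and 4 gave the lowest readings of each. Mx1 differed from chow by -0.098 ± 0.065 at 5 days (limma adjusted p = 0.366) and by 0.045 ± 0.065 at 42 days. Mx2 differed by -0.20 ± 0.059 (adjusted p = 0.0700) and -0.12 ± 0.059 (adjusted p = 0.278). With chow replicate 4 left out, Mx1 differed by -0.085 ± 0.072 and 0.058 ± 0.072, and Mx2 by -0.18 ± 0.066 and -0.10 ± 0.066.

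Usp18 removes ISG15 from proteins and dampens the type I receptor. The chow arrays read 7.94, 7.81, 7.81 and 8.22 for Usp18, those of the 5-day group 7.81, 7.79, 7.86 and 7.92, and those of the 42-day group 7.96, 7.71, 7.53 and 7.48. Chow replicate 4 was the highest and 42-day replicates 3 and 4 the lowest, and the groups overlapped. Usp18 differed from chow by -0.10 ± 0.10 at 5 days and by -0.27 ± 0.10 at 42 days (limma adjusted p = 0.135), and without chow replicate 4 by -0.0077 ± 0.095 and -0.18 ± 0.095. For Ifi35 the log2 signals were 10.73, 10.81, 10.98 and 11.17 on chow, 10.91, 10.76, 11.17 and 10.90 after 5 days, and 10.58, 10.73, 10.63 and 10.51 after 42 days. The 42-day values of Ifi35, an interferon-induced leucine zipper protein, lay below every value of the other groups, which overlapped with each other, although the highest of them (10.726) was close to the lowest chow value (10.731). Ifi35 differed from chow by -0.31 ± 0.096 at 42 days (limma adjusted p = 0.0717) and from 5 days by -0.32 ± 0.096 (adjusted p = 0.05002, not under the threshold). Without chow replicate 4 the difference from chow was -0.23 ± 0.090 (adjusted p = 0.165), and that from 5 days passed (adjusted p = 0.0359). The probe set used carries the suffix for probes shared by several transcripts, and the other 2 probe sets of Ifi35 gave 0.019 and -0.055 at 42 days against chow, and -0.13 and -0.15 against 5 days.

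Ifitm3 is described because it passed only without chow replicate 4, a choice made after its values were seen. Signals of Ifitm3 were 11.44, 11.49, 11.26 and 12.04 in the chow group, 11.77, 11.86, 11.76 and 11.81 at 5 days, and 11.66, 11.73, 11.65 and 11.78 at 42 days. The other 3 chow arrays were the lowest of the 12, and chow replicate 4 was the highest. Its log2 fold change was 0.24 ± 0.12 at 5 days with all arrays (limma adjusted p = 0.211) and 0.40 ± 0.065 without chow replicate 4 (adjusted p = 0.0254). At 42 days these were 0.15 ± 0.12 (adjusted p = 0.501) and 0.31 ± 0.065 (adjusted p = 0.0273). Bst2, or tetherin, which holds budding viruses on the cell, averaged 8.87 ± 0.21 on chow, 8.80 ± 0.030 at 5 days and 8.74 ± 0.073 at 42 days. Xaf1, a promoter of apoptosis, averaged 8.56 ± 0.24, 8.52 ± 0.11 and 8.59 ± 0.061. Leaving out chow replicate 4 turned the 5-day difference of both to higher, with Bst2 at 0.033 ± 0.058 and Xaf1 at 0.063 ± 0.073.

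**Figure D3:**
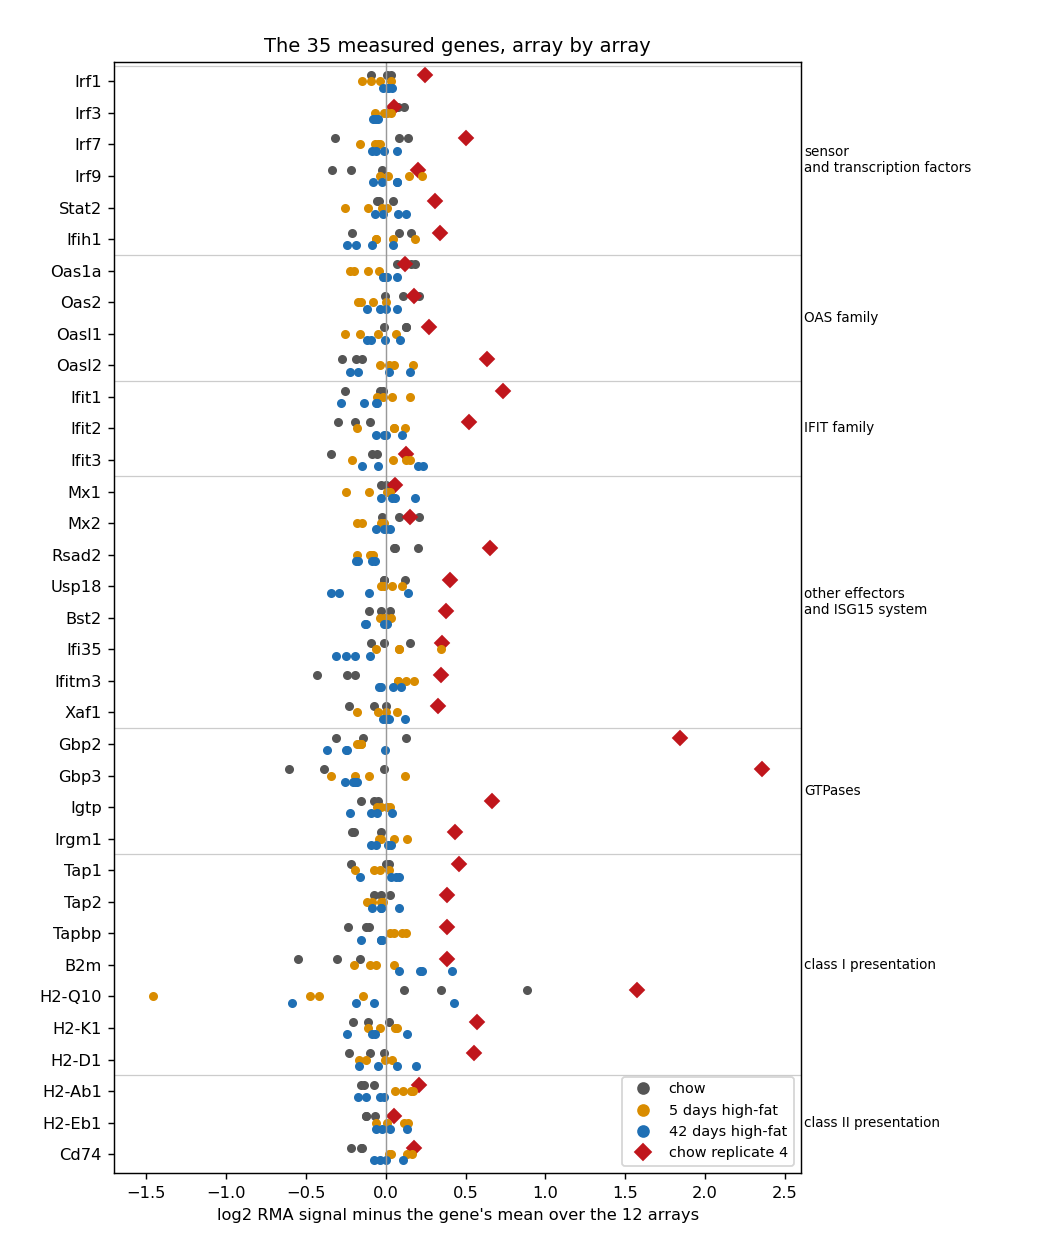
Log2 signal of each of the 35 genes minus its mean over the 12 arrays (horizontal axis), with 1 point per array and genes grouped by role; chow replicate 4 is drawn as a red diamond. That array is highest in 26 genes, and Gbp3 and Gbp2 lie farthest to the right.

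All 4 interferon-induced GTPases, of families that act against intracellular parasites, had their highest value in chow replicate 4. The following values were picked for that reason after they were seen. Gbp3 read 6.35, 6.57, 6.94 and 9.31 on the 4 chow arrays, 7.08, 6.85, 6.76 and 6.61 at 5 days, and 6.76, 6.70, 6.77 and 6.75 at 42 days. Chow replicate 4 was far above the other 11 arrays, whose groups overlapped. It exceeded the mean of the other chow arrays by 2.69 on the log2 scale, or 6.46-fold, which ranked 1 among all 18193 genes. The chow arrays read 8.14, 8.31, 8.58 and 10.29 for Gbp2, those of the 5-day group 8.29, 8.29, 8.29 and 8.27, and those of the 42-day group 8.09, 8.20, 8.21 and 8.45. Again 1 array stood alone, by 1.95 or 3.87-fold, which ranked 4, and both probe sets of Gbp2 showed it (1.92 and 1.95). Gbp2 differed from chow by -0.54 ± 0.32 at 5 days (limma adjusted p = 0.306) and -0.59 ± 0.32 at 42 days (adjusted p = 0.302), and without chow replicate 4 by -0.056 ± 0.096 and -0.11 ± 0.096. Gbp3 differed by -0.47 ± 0.44 and -0.55 ± 0.44 with it, and by 0.20 ± 0.12 and 0.13 ± 0.12 without it, a change of direction at both times. Igtp and Irgm1, of the immunity-related GTPase family, were 0.75 and 0.58 higher in chow replicate 4 than the mean of the other chow arrays. Iigp1, a GTPase outside the list, ranked 2 among all genes in that array, at 11.02 against 8.45 to 9.12 in the other chow arrays.

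H2-Q10 showed the largest difference of the 35 genes at either time with all 12 arrays. It encodes a secreted class I molecule best known from liver. For H2-Q10 the log2 signals were 8.41, 8.64, 9.18 and 9.87 on chow, 6.83, 7.82, 8.15 and 7.88 after 5 days, and 8.11, 8.22, 7.71 and 8.72 after 42 days. Every chow value lay above every 5-day value, 42-day values overlapped with both, and chow replicate 4 was the highest. The log2 fold change was -1.35 ± 0.31 at 5 days (limma adjusted p = 0.0361) and -0.83 ± 0.31 at 42 days (adjusted p = 0.127). When chow replicate 4 was left out they were -1.07 ± 0.28 (adjusted p = 0.0601) and -0.55 ± 0.28 (adjusted p = 0.287). The 5-day call was also lost without chow replicate 3 (adjusted p = 0.0675), 5-day replicate 2 (0.101) or 5-day replicate 4 (0.0612). H2-Q10 was read by 1 probe set, and class I genes are close relatives of one another whose shared hybridisation was not tested. With all arrays kept, the call held in 7 of 14 alternatives (adjusted p up to 0.247).

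Adipocyte markers were read beside H2-Q10. The mean of 6 white adipocyte markers was 10.34 ± 0.41 on chow (10.01 to 10.94), 9.66 ± 0.22 at 5 days (9.45 to 9.94) and 9.83 ± 0.42 at 42 days (9.34 to 10.24). The mean of 4 brown adipocyte markers was 7.96 ± 0.63 on chow (7.14 to 8.58), 7.05 ± 0.082 at 5 days (6.98 to 7.16) and 7.38 ± 0.41 at 42 days (7.02 to 7.94). By limma, Retn and Cidec of the white markers and Cidea of the brown ones fell at 5 days. Within chow, the 4 arrays had the same order for H2-Q10 and for both sets of markers. Within the 5-day group neither set kept the order of H2-Q10, and within the 42-day group only the brown set did. With the white adipocyte mean as a covariate the 5-day difference of H2-Q10 was -0.63 (limma adjusted p = 0.247), and with the lymphocyte mean it was -2.38 (0.184). In these fits 27 and 0 of all genes passed at 5 days, and the lymphocyte mean could hardly be separated from the 5-day group. With the white adipocyte covariate, 12 of the 35 genes were lower at 5 days and 13 at 42 days. The white adipocyte mean was itself highest in chow replicate 4, and higher on chow than in either diet group. The fit with it therefore absorbs part of what sets that array apart and part of the diet difference. Liver markers had a mean of 8.82 ± 0.14 on chow, 8.77 ± 0.59 at 5 days and 9.66 ± 0.45 at 42 days. The order of these group means differed from that of H2-Q10. Within each diet group, though, H2-Q10 and the liver mean were lowest in the same array, which was not so within chow. The part of fat or liver cells in the H2-Q10 values was not tested.

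**Figure D4:**
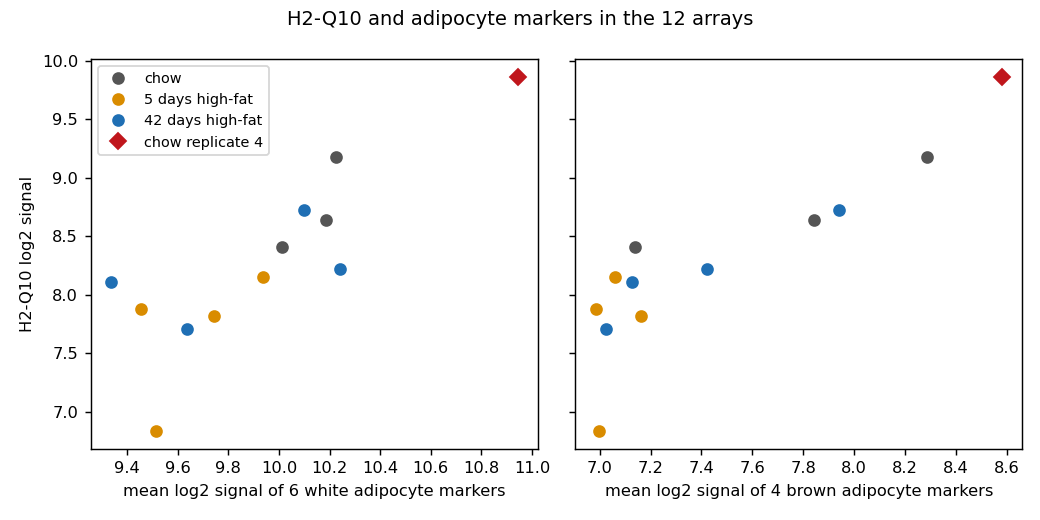
H2-Q10 log2 signal (vertical axis) against the mean log2 signal of 6 white adipocyte markers (left) and 4 brown adipocyte markers (right), with 1 point per array. Chow replicate 4 lies at the top right of both panels, at 9.87 for H2-Q10, 10.94 for the white and 8.58 for the brown markers.

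B2m is the light chain that every class I molecule needs to reach the surface. Signals of B2m were 12.20, 12.34, 11.95 and 12.89 in the chow group, 12.44, 12.55, 12.30 and 12.40 at 5 days, and 12.71, 12.73, 12.58 and 12.92 at 42 days. The 42-day values were all above the 5-day values, and the chow group held both the lowest values and, in replicate 4, the second highest. B2m differed from chow by 0.079 ± 0.14 at 5 days (limma adjusted p = 0.761) and by 0.39 ± 0.14 at 42 days (adjusted p = 0.124). Without chow replicate 4 the 42-day difference was 0.57 ± 0.095 (adjusted p = 0.0133), and 42 against 5 days gave 0.31 ± 0.14 (adjusted p = 0.154 with that array and 0.0479 without it). Its other probe set was 0.20 higher at 42 days than on chow.

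The heavy chains H2-K1 and H2-D1 and the peptide loaders Tap1, Tap2 and Tapbp did not pass the test with the probe sets used. H2-K1 averaged 11.85 ± 0.35 on chow, 11.77 ± 0.087 at 5 days and 11.71 ± 0.15 at 42 days, and H2-D1 averaged 11.66 ± 0.35, 11.54 ± 0.098 and 11.62 ± 0.15. Both were read by probe sets with the suffix for possible cross-hybridisation. Of the 9 probe sets of H2-D1, 1 other passed when every probe set was tested, with a 5-day log2 fold change of -0.32 (limma adjusted p = 0.0360). Its difference between 42 and 5 days was 0.35 (adjusted p = 0.0191). It was the dimmest of the 9, with a mean signal of 6.25 against 11.61 for the one used. Tap1 and Tap2, which pump peptides into the endoplasmic reticulum, differed from chow by -0.13 ± 0.11 and -0.14 ± 0.082 at 5 days, and Tapbp, or tapasin, by 0.098 ± 0.10. With chow replicate 4 left out, the 5-day differences were -0.0030 ± 0.079 for Tap1, -0.037 ± 0.057 for Tap2 and 0.23 ± 0.058 for Tapbp, and those of H2-K1 and H2-D1 went from -0.075 ± 0.13 and -0.12 ± 0.13 to 0.093 ± 0.084 and 0.049 ± 0.085. With its most variable probe set in place of the brightest, Tap1 rose at 42 days, by 0.32. That probe set was dim, with a mean signal of 4.79 where the lowest value of all was 3.67. The one used had a mean of 8.31 and gave -0.061 at 42 days. Choosing by variance also favours probe sets that differ between groups. In 6 of the 7 class I genes chow replicate 4 held the highest value, with a median log2 difference of 0.67 from the mean of the other chow arrays.

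With the probe sets used, the 3 class II genes were all higher at 5 days than on chow, with all 12 arrays, without chow replicate 4 and under every scaling tried, though none passed the test with all 12 arrays. Their median log2 fold change was 0.16, and 0.085 under quantile normalization. H2-Ab1 read 10.44, 10.42, 10.50 and 10.78 on the 4 chow arrays, 10.73, 10.75, 10.68 and 10.63 at 5 days, and 10.45, 10.54, 10.40 and 10.56 at 42 days. The 5-day values lay above all but 1 of the chow and 42-day values, the exception being chow replicate 4, the highest of the 12. H2-Ab1, the beta chain of the class II molecule I-A, differed from chow by 0.16 ± 0.073 at 5 days (limma adjusted p = 0.185), and by 0.25 ± 0.058 without chow replicate 4 (adjusted p = 0.0497). It was lower at 42 than at 5 days by a log2 fold change of -0.21 ± 0.073 (adjusted p = 0.0788, or 0.0365 without chow replicate 4). Its other 2 probe sets went the other way between the times, at 0.16 and 0.22, and against chow they gave 0.11 and -0.011 at 5 days. The one used carries the suffix for probes shared by several transcripts. Cd74, the invariant chain that guards the class II groove, differed from chow by 0.17 ± 0.078 at 5 days (limma adjusted p = 0.184), and by 0.26 ± 0.061 without chow replicate 4 (adjusted p = 0.0485). H2-Eb1 averaged 9.84 ± 0.081 on chow, 9.96 ± 0.093 at 5 days and 9.93 ± 0.084 at 42 days, and differed from chow by 0.11 ± 0.063 at 5 days, or 0.15 ± 0.065 without chow replicate 4.

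Markers of macrophages, dendritic cells and lymphocytes were read beside these. The macrophage mean was 9.02 ± 0.080 on chow, 9.06 ± 0.065 at 5 days and 9.13 ± 0.086 at 42 days. Its 8 genes were mixed, with 6 higher and 2 lower than on chow at 5 days, and 5 and 3 at 42 days. Adgre1 fell at 5 days, by 0.23 (limma adjusted p = 0.0469), and Lyz2 rose at 42 days, by 0.35 (0.0292). Dendritic cell markers had means of 7.72 ± 0.069, 7.63 ± 0.045 and 7.77 ± 0.085. Lymphocyte markers, most of them of T cells rather than of class II bearing B cells, had means of 7.42 ± 0.034, 7.30 ± 0.047 and 7.43 ± 0.037. The B cell genes among them, Cd79a, Cd79b and Ms4a1, had 5-day log2 fold changes of -0.18, -0.087 and -0.32, none past the test. The part of these cells in the class II values was not tested.

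**Figure D5:**
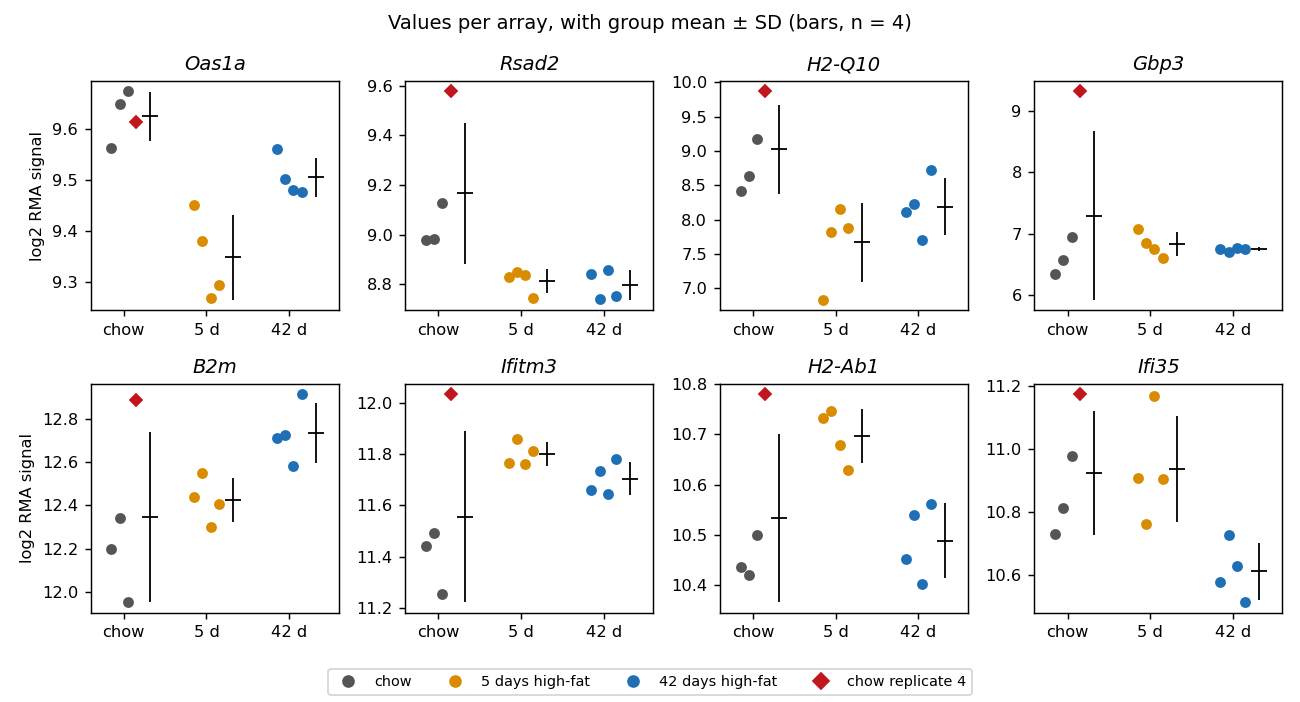
Log2 signal (vertical axes, not starting at 0) of 8 genes in each array by group, with group mean ± SD (bars, n = 4) and chow replicate 4 as a red diamond. Oas1a and H2-Q10 are lower at 5 days in every array than on chow, and Gbp3 stands out in chow replicate 4 alone, at 9.31.

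Beyond the list, 77 of 91 other genes of the pathway were measured. At 5 days 3 rose and 1 fell, at 42 days 3 rose and 3 fell, and between the times 1 rose and 4 fell. Over all genes the shares that rose and fell were 1.6% and 2.2%, 2.12% and 3.44%, and 2.75% and 5.77% in these comparisons. Their median log2 fold changes were -0.064, -0.056 and -0.0025. Genes of receptor signalling were among the rises. Stat3, a transcription factor of cytokine receptors, rose at 5 days by 0.37 ± 0.062 (limma adjusted p = 0.0184), and Jak1, the kinase shared by the interferon receptors, by 0.28 ± 0.063 (0.0357). Ifitm2, a relative of Ifitm3, rose by 0.30 ± 0.067 (0.0354), and H2-M3, a class I molecule that presents formylated peptides, fell by 0.235 (0.0491). At 42 days Jak1 rose by 0.33 ± 0.063 (limma adjusted p = 0.013), Pdia3, a chaperone of class I folding, by 0.48 ± 0.10 (0.0193), and Ifngr2, a chain of the type II interferon receptor, by 0.41 ± 0.11 (0.0439).

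The falls at 42 days were in Jak2, the second kinase of the type II receptor, by 0.43 (limma adjusted p = 0.013), Ifi27 by 0.35 (0.0456) and Trim25, a ubiquitin ligase of the RIG-I sensor, by 0.30 (0.0464). Between 5 and 42 days Stat3 fell by 0.30, Jak2 by 0.37, Trim25 by 0.37 and Irf2 by 0.28, and Ifi203 rose by 0.25 (adjusted p from 0.0182 to 0.049). The same genes fitted without chow replicate 4 gave 3 rises and 0 falls at 5 days, and 3 rises and 2 falls at 42 days. Their medians in that fit were -0.016 and -0.015. The number lower than on chow went from 49 to 42 of 77 at 5 days and from 51 to 41 at 42 days.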

How the data were processed

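RNA from 12 samples of mouse skeletal muscle, 4 per group, was measured on Affymetrix arrays. The values deposited by the authors are log2 RMA signals per probe set; RMA is named, with no version, per the submitters' processing notes. The 4 medians of the 5-day arrays (7.595 to 7.6315) lay below those of the other 8 (7.651 to 7.702), and renormalization by quantiles changed the number of genes called at 5 days from 692 to 160. The log2 scale follows from the values, which ran from 3.67 to 15.46. The table had 45098 probe sets, including 61 controls. Exactly 1 gene symbol was attached to 34945, several to 932 and none to 9160. Entrez identifiers tied 34741 of the 34945 to the reference gene table, with 0 differences in symbol. Where a gene had more than 1 probe set (9010 of 18193 genes), the brightest on average was taken, and dim genes were kept. Precision is limited by the number of arrays, which carry no depth.

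A model of 3 group means was fitted to all 12 arrays with limma 3.58.1 in R 4.3.3 (eBayes with a constant prior, 9 residual and 5.88 prior degrees of freedom). The 3 contrasts were tested two-sided, with Benjamini-Hochberg adjustment over all genes. The procedure was tested on simulated data. Values of every array are given for the genes past the test and for the 12 with the smallest F-test p-value over the groups; any other is said to have been chosen after its values were seen, or is the gene of a printed promoter. Other pathway genes are named where they passed the test. The gene list, the other lists and the tests were chosen with earlier results of these data known. Alternatives were quantile normalization, cyclic loess, median centring, leaving out the 40% dimmest genes, other choices among probe sets, array weights, a trended and robust prior, fits of only the 8 arrays of a contrast, a block for the replicate number, marker means as covariates, an adjusted p under 0.1, and leaving out each array in turn. By correlation over all genes, replicate numbers did not clearly pair the arrays, though replicate 1 had the highest array median in each group.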

Additional observations from a re-analysis of the deposited data

Results flagged for a closer look

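Of the 105 sets of 4 values checked (35 genes in 3 groups), 3 held an array whose gap to the nearest of the others was a larger part of the group's range than Dixon's limit allows; chance marks about 1 group in 20. Oasl2 read 7.633 in chow replicate 4, against 6.724 to 6.851 in the other chow arrays. Igtp read 10.591 in the same array, against 9.774 to 9.881. Tapbp read 10.416 in 42-day replicate 1, against 10.54 to 10.547 in the other 42-day arrays, and this array was the lowest of its group. Gbp3 and Gbp2, with larger differences in chow replicate 4, did not reach the limit because their other chow values were more spread.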

How the results depend on the processing

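With all arrays, 2 genes passed at 5 days, 1 at 42 days and 0 between the times. Of 15 alternatives, 7, 5 and 4 gave counts within 1.5 times of these, 1, 3 and 11 gave more, and 7, 7 and 0 gave fewer; the fold changes of Oas1a and H2-Q10 at 5 days and of Rsad2 at 42 days stayed below 0 in each alternative that gave 1 value per gene. The median of the 35 genes turned between the times, to 0.023 under quantile normalization and 0.022 under cyclic loess, and at 5 days it was -0.041 under median centring. With the white adipocyte covariate, 12 of the 35 genes were lower at 5 days and 13 at 42 days. That covariate was highest in chow replicate 4, so this shift is not a result separate from leaving that array out. In the order 5 days, 42 days and 42 against 5 days, quantile normalization and cyclic loess each gave 1, 0 and 1, median centring 2, 0 and 1, and leaving out the 40% dimmest genes 3, 3 and 2. Averaging the probe sets of a gene gave 3, 0 and 0, the most variable probe set 2, 2 and 0, and every probe set 3, 1 and 1. Array weights and the trended, robust prior each gave 1, 1 and 1. Fits of the 8 arrays compared gave 0, 0 and 3, the white adipocyte covariate 0, 0 and 2, and the lymphocyte covariate 0, 0 and 0. In these last 3 settings the calls over all genes were 7, 27 and 0 at 5 days, against 692 in the main fit. At 42 days they were 772, 111 and 1017, against 1011. Calls lost at 5 days were therefore not particular to the 35 genes. At an adjusted p under 0.1 there were 6, 3 and 3. Leaving out each array in turn gave 0 to 4, 0 to 3 and 0 to 3. With the replicate number as a block there were 3 (Oas2 added), 1 (H2-Q10 in place of Rsad2) and 1 (Ifi35). By correlation over all genes, the numbers did not clearly pair the arrays. Of 12 pairs with the same number, 3 correlated above 0.1, over a range of -0.18 to 0.22. The array most alike carried the same number for 4 of 12. Replicate 1 did have the highest array median in each group: 7.692 on chow, 7.6315 at 5 days and 7.702 at 42 days. Whether arrays with the same number shared a batch was not tested. Chow replicate 4 was highest in 24 to 27 of the 35 genes under all 4 scalings. The causes of these changes were not tested.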

Other observations

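The following genes were named after their values in chow replicate 4 were seen. Of 31 genes more than 1 log2 unit above the mean of the other chow arrays, 3 were of the 35 genes and 2 more were other genes of the pathway, Iigp1 (2.32) and Gbp7 (1.16). The others included genes known from fat cells and lipid synthesis, with Cidea at 1.59, Cidec at 1.45, Adipoq at 1.22, Ucp1 at 1.22 and Fasn at 1.21. Sox4, a transcription factor, was 2.08 higher, and Cd274, which encodes the checkpoint ligand PD-L1, 1.26 higher. Psmb8, of the immunoproteasome, which cuts peptides for class I molecules, read 8.81 in chow replicate 4, against 7.94 to 8.19 in the other chow arrays and 7.91 to 8.24 in the 8 high-fat arrays. Nlrc5, the transactivator of class I genes, read 7.62, against 6.60 to 6.97 and 6.30 to 6.67. Cxcl10, a chemokine induced by interferons, was not high there: it read 7.39, against 7.42 to 7.47 and 7.32 to 7.86, while Cxcl9 read 8.37, against 7.62 to 7.88 and 7.60 to 8.01.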
